A study of Musa acuminata AAA Group with 4 samples.

Results

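The 57 genes described here belong, by the best BLAST match that the authors deposited for each, to water channels, carriers and channels of potassium and other cations, and proteins that move, bind or need metals. The plants were Musa acuminata AAA Group cv. Cavendish, the triploid dessert banana, and transcripts were counted by RNA sequencing. They were found by searching those descriptions for words such as aquaporin, potassium, zinc transporter, copper transport, nicotianamine, metallothionein, iron and cation. The search covered the 3396 genes that the authors' filtered tables of low against normal nitrogen list for leaf, for root or for both, out of 31873 genes listed in any library. Of the 57 genes, 29 came from the leaf table alone, 23 from the root table alone and 5 from both. Membership therefore rests on the measured change under low nitrogen, and the changes below describe the genes and are not evidence for a direction. The 3 cationic peroxidases that matched the search words were left out.

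Plants stood in sand for 60 days on complete Hoagland solution (normal N) or on a low-nitrogen solution (low N), and an aboveground part, which comprised leaves and pseudostems and is called leaf here, and roots were taken from each. The 4 groups, normal-N leaf, low-N leaf, normal-N root and low-N root, had 1 library each, so no difference has a replicate check and no test was run. How many plants entered a library is not stated. A different share of pseudostem in the leaf libraries cannot be told apart from a change within leaf cells. Expected fragments on genes numbered 4144048 to 4408992 per library. Of 31 leaf markers (RuBisCO small chain, antenna and photosystem genes), 30 under normal N and 29 under low N were higher in leaf than in root. The only root marker found, a Casparian strip membrane protein (Ma08_g07640), was at 0 in both leaf libraries and at 3.75 and 16.9 FPKM in root. FPKM counts fragments per kilobase of a gene relative to the size of the library. Where a pair of values stands for a tissue, the first is normal N and the second low N.

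Plants take up water and mineral ions at the root surface and pass them to the shoot through the xylem. Aquaporins are pores for water and small neutral solutes, with PIP proteins in the plasma membrane and TIP proteins in the vacuolar membrane. Potassium and calcium cross membranes through channels, pumps and proton-coupled carriers, and the vacuole is the main store for both. Zinc, iron, manganese and copper are needed in small amounts and are harmful in excess. They enter through dedicated carriers such as the ZIP, Nramp and COPT families, travel bound to the chelator nicotianamine or to small chaperones, and are held by metallothioneins, cysteine-rich metal-binding proteins.

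The heat map of levels shows the 57 genes by role. Of them, 22 reached 100 FPKM in at least 1 library and 5 reached 1000 FPKM, namely the 3 metallothioneins, the copper chaperone CCH and the iron-sulfur subunit of the cytochrome b6-f complex. Potassium transporter 11 (Ma04_g39690) was the only gene under 5 FPKM in every library, with 0.30 and 2.25 FPKM in leaf and 0.96 and 1.25 FPKM in root. Some genes were caught by a word rather than by a transport role. The GINS protein PSF1 (Ma05_g04440) acts in DNA replication and matched because that word contains the letters of cation.

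**Figure D1:**
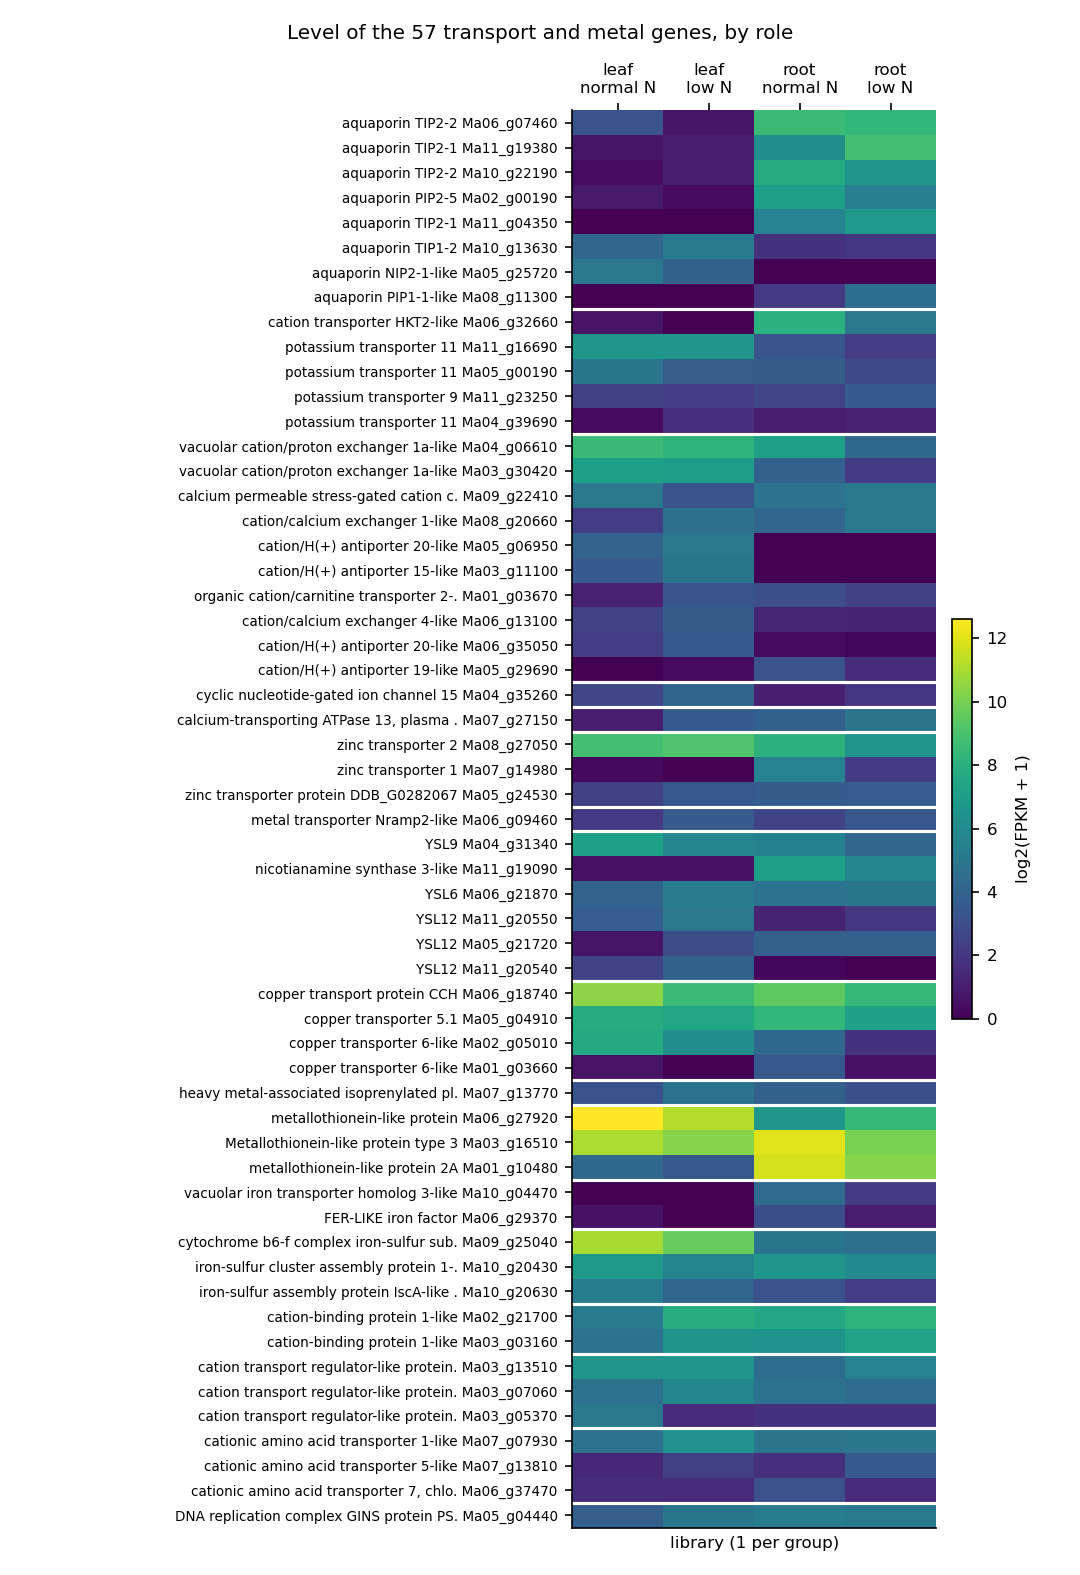
Levels of the 57 genes as log2(FPKM + 1), rows grouped by role with white lines between groups and columns for the 4 libraries (1 per group). The brightest cell is the metallothionein-like gene Ma06_g27920 in normal-N leaf, metallothionein-like protein 2A is bright in root only, and 6 of the 8 aquaporins are brighter in root than in leaf.

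Calls were made by size. A gene was called where the log2 ratio of low to normal N, with 1 FPKM added to each value, lay 1 or more from 0 and the larger value reached 2 FPKM. In leaf, 22 of the 57 genes were higher and 12 lower under low N, beside 11.7% higher and 6.70% lower among all 21715 genes at that filter. In root, 7 were higher and 19 lower, beside 4.67% higher and 6.90% lower among 24476 genes. Because the genes were drawn from tables filtered on these same contrasts, nothing is read from those counts. The median log2 change over all 57 genes, with no filter, was 0 in leaf and -0.24 in root. Over the members at the filter, 45 in leaf and 50 in root, it was 0.99 and -0.44. Over all genes at the filter it was 0.12 and -0.01. The medians of the members also follow from how they were picked. With median-ratio scaling, which moved the leaf median over all genes to -0.09, 15 members were higher and 13 lower in leaf (53.6% higher, against 64.7% with FPKM as deposited). Over all genes called, the share that was higher in leaf went from 63.6% to 46.2% with that scaling, so the direction of the majority turned. A pseudocount of 5 FPKM left 11 higher in leaf.

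Most members came from the table of 1 tissue alone, so calls in 1 tissue only follow from how they were chosen. By size, 30 genes were called in leaf and not in root, 22 in root and not in leaf, and 1 in neither. The same split over all genes is not given here, and nothing is read from these counts. No gene was called higher in both tissues, which depends on the 1 FPKM added. Without it the log2 ratio passed 1 in both tissues for Ma04_g35260, at 1.59 in leaf and 1.36 in root. The same held for Ma11_g20550 (1.33 and 1.06) and Ma07_g13810 (1.38 and 2.16). The uncalled tissue held few fragments, with 10 and 26 for Ma04_g35260 and 13 and 27 for Ma11_g20550 in root. Ma07_g13810 had 12 and 31 in leaf. The copper chaperone CCH, copper transporter 6-like (Ma02_g05010) and YSL9 were lower in both, and a metallothionein-like gene (Ma06_g27920) was lower in leaf and higher in root. Whether the change itself differed between the tissues was not tested, since each group had 1 library. In these bulk samples fewer cells of a type and less RNA per cell cannot be told apart.

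**Figure D2:**
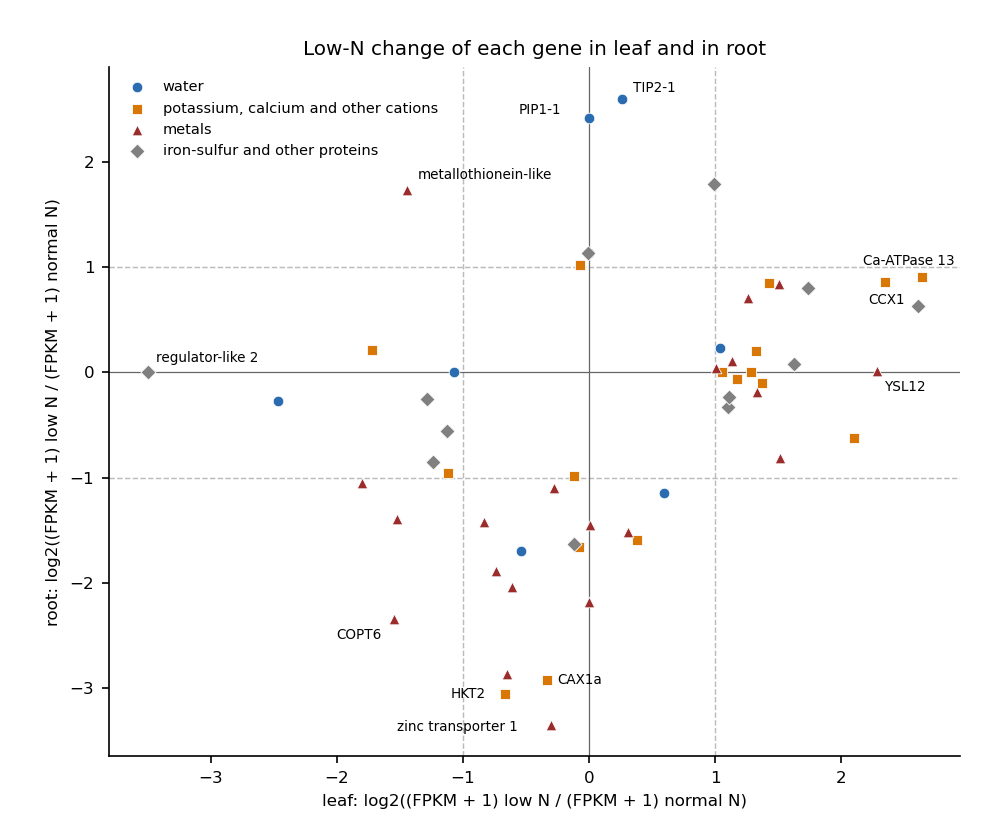
Low-N change of each of the 57 genes in leaf (horizontal) and root (vertical), both as log2 of (FPKM + 1) ratios, with dashed lines at the size limit of 1. Few genes lie beyond the limit on both axes, and the metallothionein-like gene is alone in the upper left corner.

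Intervals given with folds are exact 95% Clopper-Pearson intervals of the ratio of expected counts scaled by library totals, and they cover counting error only. They leave out how fragments were divided between similar genes, and some expected counts were not whole numbers.

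Of the 8 aquaporins picked, 6 were higher in root than in leaf under normal N, beside 42.2% of all genes at the filter. All of these 6 but TIP2-2 (Ma06_g07460) were picked through their change in root alone, so nothing is read from the count. Aquaporins outside the filtered tables are not covered. The 8 aquaporins summed to 863.7 and 1048 FPKM in root and to 57.6 and 52.4 FPKM in leaf. In root the sum was close in both libraries while its make-up differed. TIP2-2 (Ma06_g07460) led under normal N with 44.9% of the root sum, and TIP2-1 (Ma11_g19380) led under low N with 43.9%. TIP2 proteins carry ammonia as well as water in Arabidopsis.

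The TIP2-1 gene Ma11_g19380 was at 75.1 and 460.4 FPKM in root, 6.12-fold higher under low N (5.34 to 7.04), and at 0.65 and 0.98 FPKM in leaf. The other TIP2-1 gene (Ma11_g04350) was at 46.7 and 103 FPKM in root, 2.20-fold higher (1.81 to 2.69), with no fragment in leaf. TIP2-2 (Ma06_g07460) was at 388 and 322 FPKM in root, and in leaf it was at 8.26 and 0.67 FPKM, 12.4-fold lower (3.10 to 108) on 25 and 2 fragments. Both TIP2-1 genes were higher in low-N root, and the TIP2-2 genes were not. The root counts of the TIP2-1 genes were not whole numbers (244.3 and 1499.13 for Ma11_g19380, 151.7 and 335.87 for Ma11_g04350). Fragments may have been split between them, so their separate levels and folds are uncertain. The remaining TIP2-2 gene (Ma10_g22190) was at 212 and 95.1 FPKM in root, 2.23-fold lower (1.95 to 2.57), and at 0.33 and 1.01 FPKM in leaf.

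The plasma membrane aquaporins went in opposite directions in root. PIP2-5 (Ma02_g00190) was at 136 and 41.5 FPKM in root, 3.29-fold lower (2.75 to 3.97), and at 0.89 and 0.30 FPKM in leaf. PIP1-1-like (Ma08_g11300) was at 3.45 and 22.8 FPKM in root, 6.59-fold higher (3.66 to 12.9), with no fragment in leaf. Only TIP1-2 and NIP2-1-like were leaf genes. TIP1-2 (Ma10_g13630) was at 16.7 and 35.3 FPKM in leaf, 2.11-fold higher (1.501 to 2.99), and at 2.43 and 3.03 FPKM in root, and its leaf call was lost with median-ratio and with upper-quartile scaling. NIP2-1-like (Ma05_g25720), whose rice namesake is the silicon channel of roots, was at 30.8 and 14.1 FPKM in leaf, 2.19-fold lower (1.56 to 3.11), and had no fragment in either root library. Its leaf call was lost when libraries were scaled by total FPKM.

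**Figure D3:**
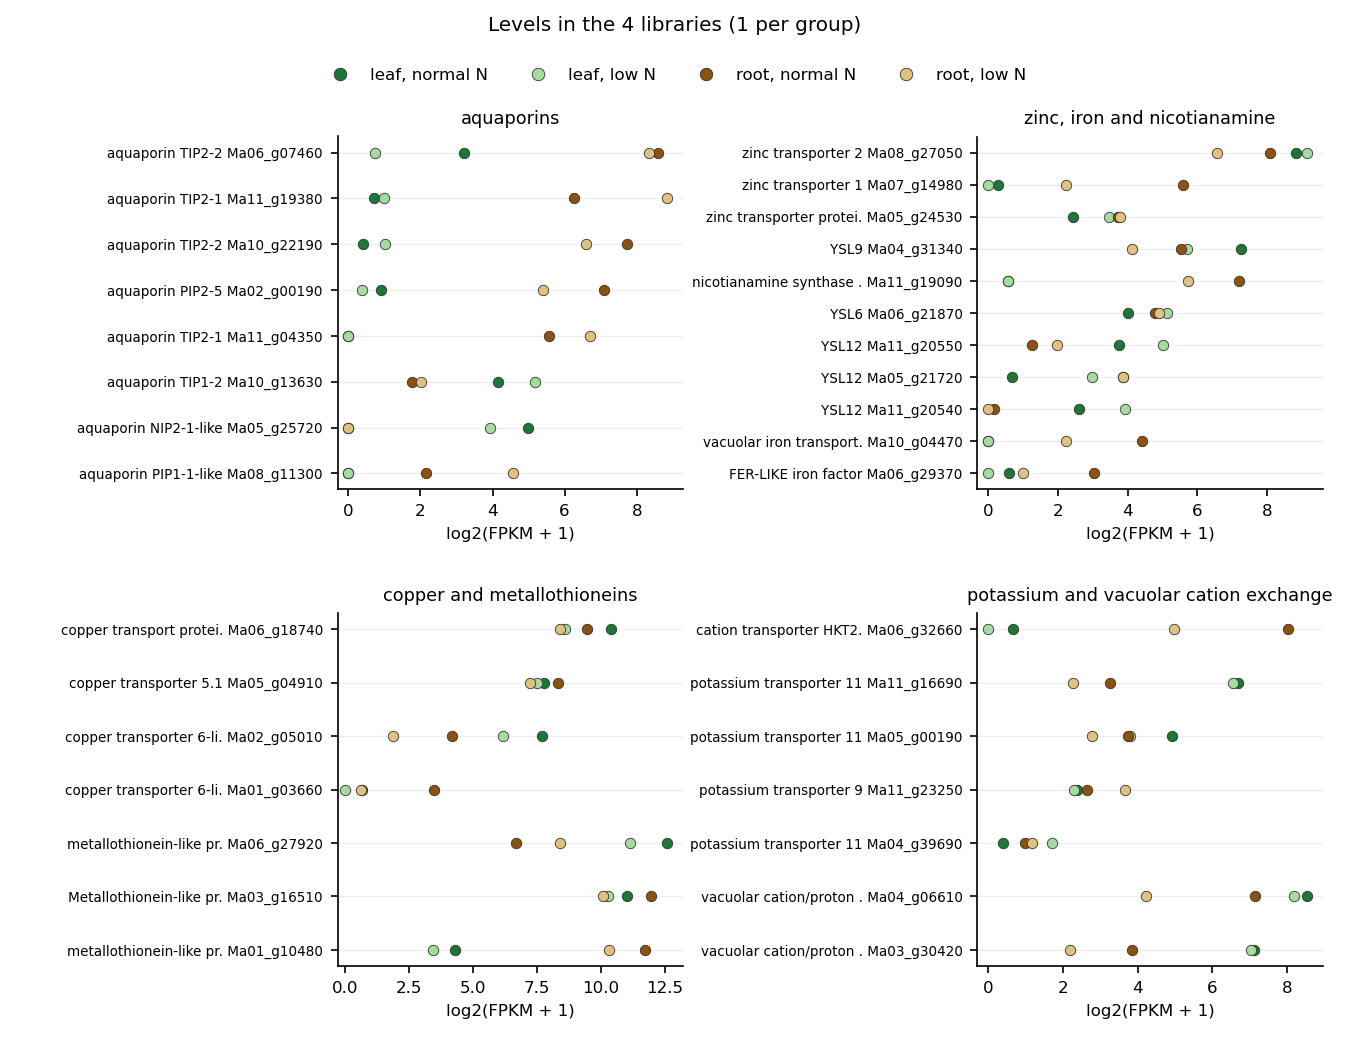
Levels of 4 sets of genes in the 4 libraries as log2(FPKM + 1), 1 point per library, green for leaf and brown for root, dark for normal N and light for low N. In root the light points lie left of the dark ones for zinc transporter 1, HKT2-like, both vacuolar exchangers and all 4 copper genes, and right of them for both TIP2-1 genes. Coinciding points hide each other.

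The potassium genes were led in root by HKT2-like and in leaf by potassium transporter 11. HKT2-like (Ma06_g32660), of a family that in rice roots takes up sodium and potassium, was at 263 and 30.7 FPKM in root, 8.58-fold lower under low N (7.46 to 9.91), and at 0.59 and 0 FPKM in leaf. It held 90.7% of the summed FPKM of the 5 potassium genes in normal-N root (289.8 FPKM) and 57.7% under low N (53.2 FPKM). The other 4 are KUP/HAK/KT carriers, which move potassium across plant membranes. Potassium transporter 11 (Ma11_g16690) was at 102 and 93.5 FPKM in leaf and at 8.55 and 3.84 FPKM in root, 2.26-fold lower there (1.54 to 3.36).

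A second potassium transporter 11 gene (Ma05_g00190) is listed as lower for both tissues in the authors' deposited tables. It was at 29.1 and 12.9 FPKM in leaf, 2.27-fold (1.84 to 2.82), and 12.3 and 5.88 FPKM in root, 2.09-fold (1.53 to 2.87). The root changes of Ma05_g00190 and Ma11_g16690 missed the size limit here, at -0.96 and -0.98 on the log2(FPKM + 1) scale. Their root counts were not whole numbers (131.19 and 62.6 against 89.81 and 40.4), so fragments may have been split between them. Potassium transporter 9 (Ma11_g23250) went the other way in root, from 5.20 to 11.6 FPKM, 2.21-fold higher (1.59 to 3.11), and was at 4.21 and 3.95 FPKM in leaf. The third gene described as potassium transporter 11, Ma04_g39690, rested on 3 and 22 fragments in leaf, 7.37-fold higher (2.21 to 38.5).

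Of the 10 cation exchangers, antiporters and channels, 6 were higher and 1 lower in leaf (4 higher with median-ratio scaling), and 3 were lower and 0 higher in root, beside the shares over all genes of 11.7% higher and 6.70% lower in leaf and 4.67% and 6.90% in root. These genes too were picked on the same contrasts. The vacuolar cation/proton exchangers, which load calcium and other cations into the vacuole, were the most abundant of them in leaf. In low-N root the stress-gated channel Ma09_g22410 led instead. The gene Ma04_g06610 (1a-like) was at 372 and 294.5 FPKM in leaf and 141 and 17.7 FPKM in root, 7.97-fold lower in root (6.53 to 9.82). Its relative Ma03_g30420 was at 139 and 131.5 FPKM in leaf and 13.5 and 3.57 FPKM in root, 3.75-fold lower in root (2.35 to 6.23). For both exchangers the leaf libraries lay within 1.26-fold of each other with counts scaled by library totals, and the root libraries were further apart. With median-ratio scaling the leaf ratio of low to normal N went from 0.79 to 0.68 for Ma04_g06610 and from 0.94 to 0.81 for Ma03_g30420.

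CHX proteins exchange potassium and other monovalent cations for protons, and CHX20 acts in guard cells of Arabidopsis. Antiporter 15-like (Ma03_g11100) was at 11.4 and 29.2 FPKM in leaf, 2.56-fold higher (2.06 to 3.20). The antiporter 20-like genes were at 3.88 and 11.6 FPKM in leaf (Ma06_g35050), 2.99-fold higher (2.08 to 4.37), and at 14.9 and 32.1 FPKM (Ma05_g06950), 2.15-fold higher (1.78 to 2.61). All 3 were leaf genes, since Ma03_g11100 and Ma05_g06950 had no fragment in root and Ma06_g35050 was at 0.27 and 0.18 FPKM there. The call of Ma05_g06950 was lost with median-ratio and with upper-quartile scaling. Antiporter 19-like (Ma05_g29690) was instead a root gene, at 8.48 and 2.15 FPKM in root, 3.93-fold lower (2.46 to 6.51), and at 0 and 0.30 FPKM in leaf.

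Cation/calcium exchanger 1-like (Ma08_g20660) was at 3.97 and 24.3 FPKM in leaf, 6.10-fold higher (4.07 to 9.46), and at 16.5 and 30.8 FPKM in root, 1.86-fold higher (1.49 to 2.34) and under the size limit. Exchanger 4-like (Ma06_g13100) was at 4.91 and 12.3 FPKM in leaf and at 1.51 and 1.40 FPKM in root, and its leaf call was lost with median-ratio scaling. Organic cation/carnitine transporter 2-like (Ma01_g03670) was at 1.24 and 8.59 FPKM in leaf, 6.91-fold higher (3.27 to 16.8), and at 7.32 and 4.39 FPKM in root. The member of the group that was lower in leaf was a calcium permeable stress-gated cation channel (Ma09_g22410), of a family that opens on osmotic stress. It was at 31.2 and 8.76 FPKM in leaf, 3.57-fold lower (2.80 to 4.60), and at 27.1 and 31.6 FPKM in root.

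Other genes of calcium movement and binding were higher in leaf. Calcium-transporting ATPase 13 of the plasma membrane type (Ma07_g27150), a pump that exports calcium from the cytosol, was at 1.07 and 11.9 FPKM in leaf, 11.1-fold higher (6.39 to 20.7), and at 14.3 and 27.6 FPKM in root, 1.92-fold higher (1.62 to 2.29) and under the size limit. Cyclic nucleotide-gated ion channel 15 (Ma04_g35260) was at 5.24 and 15.8 FPKM in leaf, 3.06-fold higher (2.19 to 4.35), and at 1.05 and 2.69 FPKM in root. Both genes were also higher in low-N root than in normal-N root, without reaching the limit. The plasma membrane-associated cation-binding proteins bind calcium and membrane lipids in Arabidopsis, and both genes were higher in low-N leaf. Ma02_g21700 was at 37.0 and 231 FPKM in leaf, 6.22-fold higher (4.97 to 7.87), and at 181 and 280.1 FPKM in root, 1.55-fold higher (1.38 to 1.74). Ma03_g03160 was at 27.1 and 92.4 FPKM in leaf, 3.41-fold higher (2.60 to 4.54), and at 88.6 and 155 FPKM in root. The low-N root counts of these genes were not whole numbers (712.75 and 413.25), nor were their leaf counts. Fragments may have been split between them.

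Zinc, iron and nicotianamine genes are described next, each group by its own counts. Of the 3 zinc genes, 2 were lower in root and 1 was higher in leaf, beside 6.90% and 11.7% of all genes. As for every role group, these counts come from genes picked on the same contrast and are read no further than the values. Zinc transporter 1 (Ma07_g14980) was at 47.3 and 3.75 FPKM in root, 12.6-fold lower (7.71 to 22.1), and at 0.23 and 0 FPKM in leaf. Zinc transporter 2 (Ma08_g27050), the most abundant of the 3 zinc genes in every library, was at 270.5 and 93.8 FPKM in root, 2.89-fold lower (2.59 to 3.23), and at 454 and 561 FPKM in leaf. The third, a probable zinc transporter (Ma05_g24530), was at 12.4 and 12.8 FPKM in root and at 4.48 and 10.02 FPKM in leaf, 2.23-fold higher (1.58 to 3.18), a call lost with median-ratio and with upper-quartile scaling.

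The FER-LIKE iron deficiency-induced transcription factor (Ma06_g29370), whose Arabidopsis namesake turns on iron uptake genes in root, was at 7.24 and 1.00 FPKM in root, 7.28-fold lower (2.56 to 28.5) on 29 and 4 fragments, and at 0.53 and 0 FPKM in leaf. Vacuolar iron transporter homolog 3-like (Ma10_g04470), of a family that moves iron into the vacuole, was at 20.4 and 3.71 FPKM in root, 5.52-fold lower (2.79 to 12.2), with no fragment in leaf. Nicotianamine synthase 3-like (Ma11_g19090), which makes the chelator, was at 144 and 52.0 FPKM in root, 2.77-fold lower (2.37 to 3.25), and at 0.50 and 0.51 FPKM in leaf. These 3 genes were at or near 0 in both leaf libraries. Both iron genes were called lower in root, beside 6.90% of all genes, and both were picked through their change in root.

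Of the 6 nicotianamine genes, 4 were higher and 1 lower in leaf, beside 11.7% and 6.70% of all genes. In root 0 were higher and 2 lower, beside 4.67% and 6.90%. The YSL carriers, which move metals bound to nicotianamine, went both ways in leaf. YSL9 (Ma04_g31340) was lower in both tissues, at 149 and 51.4 FPKM in leaf, 2.91-fold (2.61 to 3.26), and 45.0 and 16.6 FPKM in root, 2.73-fold (2.25 to 3.31). The other 4 were higher in leaf. The YSL12 gene Ma05_g21720 was at 0.63 and 6.91 FPKM in leaf, 11.1-fold higher (4.46 to 35.4), and at 13.6 and 13.8 FPKM in root. YSL6 (Ma06_g21870) was at 15.2 and 34.4 FPKM in leaf, 2.26-fold higher (1.83 to 2.80), and at 26.5 and 28.6 FPKM in root, and its leaf call was lost with median-ratio scaling.

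A pair of YSL12 genes, Ma11_g20540 and Ma11_g20550, shared the same best BLAST match, so fragments may have been split between them and their separate levels are uncertain. They were at 5.08 and 14.3 FPKM and at 12.5 and 31.4 FPKM in leaf, 2.84-fold (1.96 to 4.18) and 2.50-fold (1.99 to 3.15) higher. In root Ma11_g20540 was at 0.14 and 0 FPKM and Ma11_g20550 at 1.41 and 2.94 FPKM. Nramp2-like (Ma06_g09460), of a family that carries divalent metals such as manganese and iron, was at 3.36 and 11.4 FPKM in leaf, 3.38-fold higher (2.08 to 5.72), and at 5.05 and 9.80 FPKM in root. A heavy metal-associated isoprenylated plant protein 26-like gene (Ma07_g13770) was at 7.98 and 24.7 FPKM in leaf, 3.09-fold higher (1.66 to 6.11), and at 14.0 and 7.52 FPKM in root.

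All 4 copper genes were lower in low-N root, beside 6.90% lower among all genes there. All 4 were picked through the root table, so that direction is part of how they were chosen. Each had its highest value in a normal-N library, leaf for 2 of them and root for 2. Copper transport protein CCH (Ma06_g18740), a copper chaperone, was at 1348 and 386 FPKM in leaf, 3.50-fold lower (3.16 to 3.88), and at 706 and 339 FPKM in root, 2.09-fold lower (1.86 to 2.34). Scaling by total FPKM brought its root change to -0.96 (log2) and ended that call. Copper transporter 6-like (Ma02_g05010), of the COPT family of copper uptake carriers, was at 209 and 70.8 FPKM in leaf, 2.95-fold lower (2.41 to 3.64), and at 17.4 and 2.63 FPKM in root, 6.62-fold lower (2.57 to 21.7). Both genes are listed in the filtered tables of both tissues, so lower values in both are part of how they were chosen.

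The other copper transporter 6-like gene (Ma01_g03660) was at 10.2 and 0.53 FPKM in root on 19 fragments and 1 fragment, 19.1-fold lower (3.03 to 792), and at 0.57 and 0 FPKM in leaf. Copper transporter 5.1 (Ma05_g04910) was at 319 and 148 FPKM in root, 2.16-fold lower (1.87 to 2.51), and at 221 and 183 FPKM in leaf. The 4 copper genes summed to 1778 and 639.5 FPKM in leaf and to 1053 and 490.3 FPKM in root.

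As a group the metallothioneins had the highest summed FPKM of the role groups in every library, with 8340 and 3555 FPKM in leaf and 7516 and 2691 FPKM in root. Each of the 3 had its own pattern. The metallothionein-like gene Ma06_g27920 led in leaf, at 6215 and 2282 FPKM, 2.73-fold lower (2.58 to 2.90). In root it was at 101 and 339 FPKM, 3.36-fold higher (2.58 to 4.42). It was the only member whose calls had opposite signs in the tissues, and both calls held under each of the 3 scalings tried. Its expected root counts were not whole numbers (73.19 and 245.66), and neither were those of Ma03_g16510 (2963.81 and 801.34). Fragments may have been split between these genes, which the scalings and intervals do not cover.

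Metallothionein-like protein 2A (Ma01_g10480) was a root gene, at 3399 and 1268 FPKM in root, 2.69-fold lower (2.51 to 2.88), and at 18.5 and 9.91 FPKM in leaf on 15 and 8 fragments. Metallothionein-like protein type 3 (Ma03_g16510) was abundant in all 4 libraries, at 2107 and 1263 FPKM in leaf, 1.67-fold lower (1.54 to 1.82) and under the size limit, and at 4017 and 1085 FPKM in root, 3.71-fold lower (3.43 to 4.02). The coding lengths listed for the 3 genes were 195, 225 and 198 bases. For genes under 300 bases the deposited FPKM was at the median 1.14 times the expected count per length and library total in every library, and the files do not say why.

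**Figure D4:**
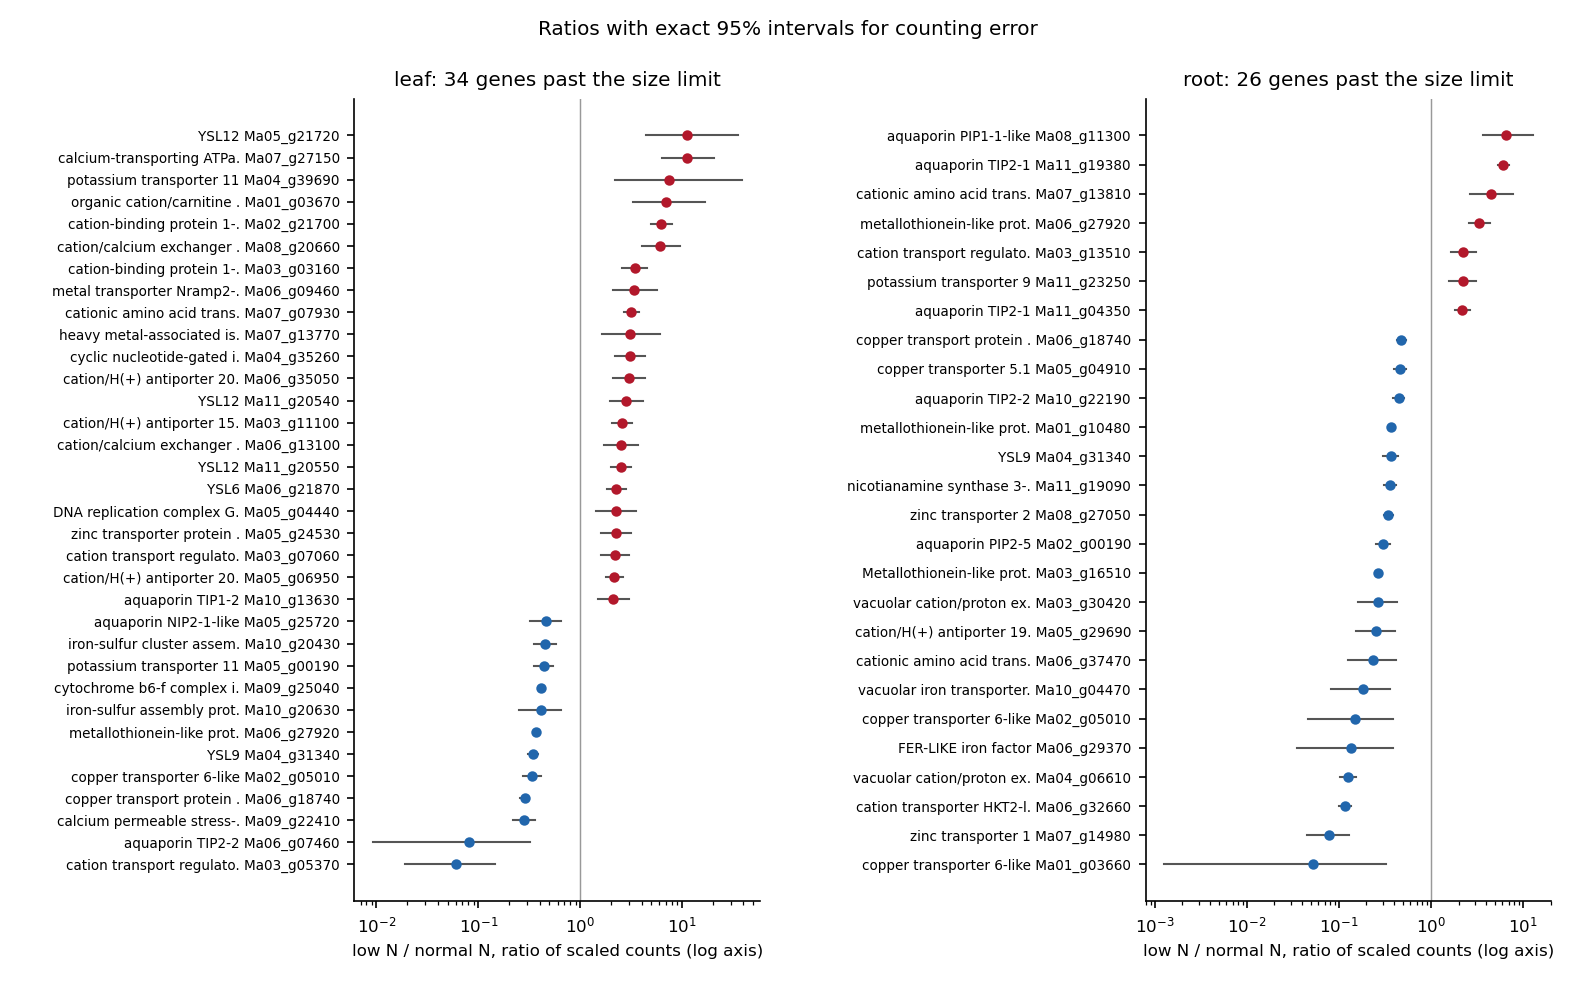
Ratio of low N to normal N for the 34 genes past the size limit in leaf and the 26 in root, on log axes that differ in range, with lines for exact 95% intervals of counting error. Red points are higher and blue points lower under low N, and the widest intervals belong to genes with the fewest fragments.

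The 3 iron-sulfur genes, all picked through their change in leaf, were lower there, beside 6.70% of all genes. The iron-sulfur subunit of the chloroplast cytochrome b6-f complex (Ma09_g25040), which passes electrons between the photosystems, was at 1991 and 818 FPKM in leaf, 2.44-fold lower (2.32 to 2.56), and at 28.7 and 23.9 FPKM in root. The 31 leaf markers summed to 54870 and 22490 FPKM in leaf, and their part in this result was not tested. The iron-sulfur cluster assembly protein 1-like gene (Ma10_g20430), a scaffold for cluster assembly, was at 106 and 48.1 FPKM in leaf, 2.21-fold lower (1.74 to 2.84), and at 95.7 and 64.8 FPKM in root. The mitochondrial IscA-like 1 gene (Ma10_g20630) was at 39.4 and 16.1 FPKM in leaf, 2.45-fold lower (1.53 to 4.03), and at 8.14 and 4.06 FPKM in root.

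The remaining genes share a word with the transporters. Cation transport regulator-like protein 2 belongs to a family that breaks down glutathione in Arabidopsis, and its 3 genes went apart. Ma03_g05370 was at 32.1 and 1.92 FPKM in leaf, 16.7-fold lower (6.89 to 52.8), and at 2.52 FPKM in both root libraries. Ma03_g07060 was at 25.98 and 56.8 FPKM in leaf, 2.18-fold higher (1.59 to 3.02), a call lost with median-ratio and with upper-quartile scaling, and at 25.8 and 20.4 FPKM in root. Ma03_g13510 was at 94.1 and 93.6 FPKM in leaf and at 21.0 and 47.2 FPKM in root, 2.25-fold higher in root (1.64 to 3.11).

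Cationic amino acid transporters carry amino acids such as arginine and lysine. Transporter 1-like (Ma07_g07930) was at 25.5 and 80.9 FPKM in leaf, 3.17-fold higher (2.69 to 3.75), and at 27.8 and 29.4 FPKM in root. Transporter 5-like (Ma07_g13810) was at 2.41 and 10.8 FPKM in root, 4.46-fold higher (2.69 to 7.77), and at 1.61 and 4.19 FPKM in leaf. Transporter 7 (Ma06_g37470) was at 7.82 and 1.85 FPKM in root, 4.22-fold lower (2.37 to 7.97), and at 2.09 and 1.84 FPKM in leaf. PSF1 (Ma05_g04440) was at 12.9 and 29.0 FPKM in leaf and 38.6 and 32.6 FPKM in root, and its leaf call was lost with median-ratio and with upper-quartile scaling.

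The tissues were also compared for these 57 genes. Under normal N, 20 of the 57 genes were higher in leaf than in root by size and 23 lower, beside 20.1% and 42.2% of all 25724 genes at the filter. Under low N, 22 were higher in leaf and 16 lower, beside 22.8% and 37.1% of 25802 genes. The genes had been picked for change in a tissue and so for being measured there, and the shares describe these libraries only. In both solutions 18 genes were higher in leaf and 13 higher in root, and 0 changed from a call in the direction of leaf to a call in the direction of root or back. The same overlap over all genes is not given here, and nothing is read from these counts. Of the 8 aquaporins, 6 were higher in root and 2 in leaf under either solution.

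Some genes were close to 0 in leaf and high in root. HKT2-like was 446-fold higher in normal-N root than in normal-N leaf (174 to 1638), on 1881 and 4 fragments. Nicotianamine synthase 3-like was 288-fold higher (79.4 to 2385), on 608 and 2 fragments. Its leaf count lay under the floor of 3 counts used for empty libraries, so the size of that fold is uncertain.

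For some genes the gap between tissues differed between the normal-N and low-N libraries. The genes were picked for a change between the solutions, so a differing gap is partly built in. The vacuolar exchanger Ma04_g06610 was 2.64-fold higher in leaf than in root under normal N (2.43 to 2.85) and 16.6-fold under low N (13.7 to 20.4). Zinc transporter 2 was 1.67-fold higher in leaf under normal N (1.56 to 1.80) and 5.96-fold under low N (5.38 to 6.62). The gap narrowed for the metallothionein-like gene Ma06_g27920, from 61.4-fold higher in leaf (48.7 to 78.5) to 6.70-fold (5.85 to 7.70), and for the calcium pump Ma07_g27150, from 13.4-fold higher in root (7.80 to 25.0) to 2.33-fold (1.93 to 2.83), a call that each of the 3 scalings ended. These are single libraries, and the differences between solutions were not tested.

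A list of 23 related ion transport genes of the same tables was set beside the members. It held proton pumps, anion and chloride channels, glutamate receptors and ferric reductases among others. In leaf 7 were higher and 0 lower, beside 11.7% and 6.70% of all genes, and in root 4 were higher and 9 lower, beside 4.67% and 6.90%. The list was drawn from tables of changed genes, which fixes that many of it are called. The 7 in leaf were 5 glutamate receptor genes, whose products are cation channels, and a pair of aluminum-activated malate transporter 9-like genes. The most abundant receptor gene (Ma06_g03580) was at 21.2 and 104 FPKM in leaf.

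In root a ferric-chelate reductase 1-like gene (Ma03_g32800) was at 27.4 and 5.03 FPKM and was called lower, as was the FER-LIKE gene. Of the 3 plasma membrane proton pump genes, which drive proton-coupled uptake, 2 were lower and 1 higher in root. Ma05_g25120 was at 268 and 55.2 FPKM and Ma01_g00990 at 193 and 86.5 FPKM, both called lower, and Ma04_g12650 was at 10.7 and 32.7 FPKM and called higher. The vacuolar pyrophosphate-energised proton pumps also parted, with Ma01_g20070 at 52.6 and 121 FPKM and called higher, and Ma02_g07140 at 29.8 and 8.08 FPKM and called lower. How far near-identical copies of these pumps shared fragments is not known here.

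In the authors' deposited table for leaf 22 members were higher and 12 lower, among 1501 higher and 724 lower genes in all, or 5.26% and 2.54% of the genes listed in either leaf library. The authors' deposited table for root had 7 members higher and 21 lower, among 534 and 820 genes, or 1.75% and 2.69%. In the authors' deposited tables the members nearest the ratio limit were TIP1-2, at 1.08 on the log2 scale in leaf, and CCH, at -1.06 in root. Members just outside in the other tissue, by the ratio of their listed FPKM, were Nramp2-like at 0.96 and the calcium pump at 0.95 in root and metallothionein-like protein 2A at -0.90 in leaf. Some ratios of few fragments were past the limit and still not listed, such as the channel Ma04_g35260 at 1.36 in root. The p-values in the authors' deposited tables set single libraries against each other and were not used for any call here. They appear to have entered the authors' filtering by FDR, and so the choice of members.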

How the data were processed

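Libraries were made from poly(A) RNA by random priming, and no strand-marking step is named, per the labels' protocols. BWA and Bowtie appear in the submitters' processing notes with no role given. Not given in the sources used here are the counter, build and annotation. Per the file headers, the authors deposited an expected count and an FPKM value per gene and library, and a filtered table per tissue with the log2 ratio, p-value and FDR of each gene. Genes absent from a library's list were read as 0. Expected counts were rounded to whole numbers for folds. A library with 0 counts was given a floor of 3 counts. A fold was not computed where both libraries had 3 counts or fewer.

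The members, role groups and related list were chosen with earlier results of these data known. Named with their values were members reaching 5 FPKM in a library. Folds were given for up to 3 members per direction, role and tissue and for the most abundant per role, plus others, and the 1 member under 5 FPKM, chosen after their values were seen. None of the 57 gene IDs matched the RefSeq gene table (0 of 31873 over all genes), so no coordinates or sequences are shown. Results were recomputed with a pseudocount of 0.1 or 5, with the expression filter removed or raised to 10 FPKM, with a size limit of 2, with 3 scalings, and with narrower or wider membership. Python 3.11.15, pandas 2.3.3 and scipy 1.17.1 were used, and the intervals were tested on simulated data.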

Additional observations from a re-analysis of the deposited data

Results flagged for a closer look

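The metallothionein-like gene Ma06_g27920 was flagged because its low-N change had opposite signs in leaf and root. Its log2 change was -1.45 in leaf and 1.74 in root, a difference of 3.18. With 1 library per group the difference between the tissues was not tested.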

How the results depend on the processing

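No paired analysis was possible because each group had 1 library. Counts of members per direction in the 4 comparisons were within 1.5 times of the reported ones under a pseudocount of 0.1, no filter, a filter of 10 FPKM, 3 scalings, membership limited to genes named for transport or metal handling, and membership widened by the KEGG text, the last chosen after seeing the data. A pseudocount of 5 left 11 genes higher in low-N leaf and 10 lower in leaf than root under low N, which understates changes of weakly expressed genes by construction. A size limit of 2 left 5 higher and 2 lower in leaf and 2 higher and 7 lower in root. The 34 members listed for leaf, those of both tables included, gave 1 higher and 3 lower in root under low N. They gave 9 and 3 lower in leaf than root under normal and low N. The 28 members listed for root, again with those of both tables, gave 0 higher and 5 lower in leaf under low N. Set against root, leaf had 8 of these higher and 14 lower under normal N, and 8 higher under low N. Both sets hold fewer genes by construction. Of 87 folds, 8, all in leaf, left their interval under median-ratio scaling, and none of these 8 changed direction. Depth limits genes with few fragments, such as copper transporter 6-like (Ma01_g03660).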
